A study of Lactuca sativa with 6 samples.

Results

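The *SMALL AUXIN UP RNA* (*SAUR*) genes described here are the 7 genes, of 2579 in the deposited table, whose Swiss-Prot description names a SAUR protein, the mung bean protein ARG7, or the soybean auxin-induced proteins 15A, 10A5, 6B or X. Of the 7, 6 carry a name in the study's gene list: *LsSAUR12*, *LsSAUR22*, *LsSAUR45*, *LsSAUR59*, *LsSAUR70* and *LsSAUR72*. The other is given by its identifier, Lsat_1_v5_gn_8_126421. RNA was sequenced from young leaves of 1-month-old lettuce (*Lactuca sativa*, cultivar S39), in 3 wild-type (WT) libraries and 3 libraries of *LsAP2* overexpressors (*LsAP2*-OE). The *LsAP2*-OE plants carry the coding sequence of *LsAP2*, a transcriptional repressor, under a constitutive cauliflower mosaic virus promoter. Which transgenic line or lines gave the 3 libraries was not given in the sources used here, so effects of *LsAP2* and of a particular insertion cannot be told apart. The comparison asks which genes differ in leaves that become small and crinkly when *LsAP2* is overexpressed.

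*SAUR* genes are a large plant family whose transcripts accumulate soon after auxin is given. They encode small proteins, and several of the founding members, to which the descriptions here refer, were isolated as transcripts that auxin induces in elongating hypocotyls of soybean and mung bean. In *Arabidopsis*, SAUR proteins of the SAUR19 group bind and inhibit type 2C protein phosphatases (PP2C), which keeps plasma membrane proton pumps phosphorylated and active. The pumps acidify the cell wall, where expansins and xyloglucan enzymes loosen it, and cells expand. Other *Arabidopsis* SAUR proteins have been linked to leaf senescence or to restraint of growth, so family membership alone does not give the role of a lettuce gene.

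For each gene the table lists 1 normalized expression value in every library, without counts, and the kind of normalization is not named. Sequencing depth is unknown for that reason. Whether values are per transcript length is unknown too, so levels are not compared between genes. Only genes that the authors had already called different between these same libraries are in it, at a fold change of at least 2. Unchanged *SAUR* genes cannot appear in it, and the p-value of a listed gene is not independent evidence of a difference. *LsAP2* itself was listed at 25.3, 27.9 and 30.5 in WT and at 214, 209 and 224 in *LsAP2*-OE, higher in each library labelled so, although transgene and native transcripts are not separated. The listed values of a library summed to between 97790 and 112997, and Pearson correlations across genes, which are not independent replicates, were 0.986 to 0.990 within groups and 0.733 to 0.745 between groups. Markers of several cell types moved with the group, and their part in the *SAUR* results was not tested. Their counts are to be read beside the whole table, in which nearly every gene differs by selection. At an adjusted p below 0.01 from limma, 59.1% of it was higher and 39.6% lower. The 67 genes of dividing cells (words for histones, proliferating cell nuclear antigen and ribonucleotide reductase) were all lower in *LsAP2*-OE, with a summed value of 36063 to 47431 in WT and 13397 to 13868 in *LsAP2*-OE. The 13 xylem markers and 3 phloem markers were all higher, with summed values of 24.3 to 29.5 against 62.3 to 65.9 and of 61.6 to 70.1 against 133 to 141. Of 12 epidermal markers 10 were higher and 2 lower (292 to 312 against 393 to 409), of 14 markers of photosynthetic cells 6 were higher and 8 lower (median log2 fold change −1.25, highest 7.39, summed values of 8689 to 9770 against 18000 to 20858), and the single guard cell gene was higher (1.75 to 2.19 against 4.32 to 4.86). None of these marker genes was listed at 0 in any library. The marker words were matched by their capitals. Without regard to capitals, 84 genes of dividing cells matched, all lower, and 13 epidermal genes, 10 higher and 3 lower. In whole leaves, fewer cells of a type and less RNA per cell cannot be told apart.

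Of the 7 *SAUR* genes, 5 were lower and 2 were higher in *LsAP2*-OE leaves. The lower genes were *LsSAUR12*, *LsSAUR45*, *LsSAUR70*, *LsSAUR72* and Lsat_1_v5_gn_8_126421, with ratios of the WT mean to the *LsAP2*-OE mean of 2.54 to 5.93. The higher genes were *LsSAUR22* and *LsSAUR59*, whose means rose 2.87-fold and 3.72-fold. The test was limma on the scale log2(value + 0.1), with Benjamini-Hochberg adjustment over all 2579 genes. At an adjusted p below 0.01, 39.6% of the table was lower and 59.1% higher (98.7% in either direction), against 71.4% (5) and 28.6% (2) of the *SAUR* genes. These are shares of 7 genes and no test of them was made. The groups did not overlap for any of the 7, with 5 lower and 2 higher, which was also true of 99.4% of the table (39.7% lower and 59.6% higher). No *SAUR* gene was listed at 0 in any library, and all 7 had a mean value of at least 1.

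**Figure D1:**
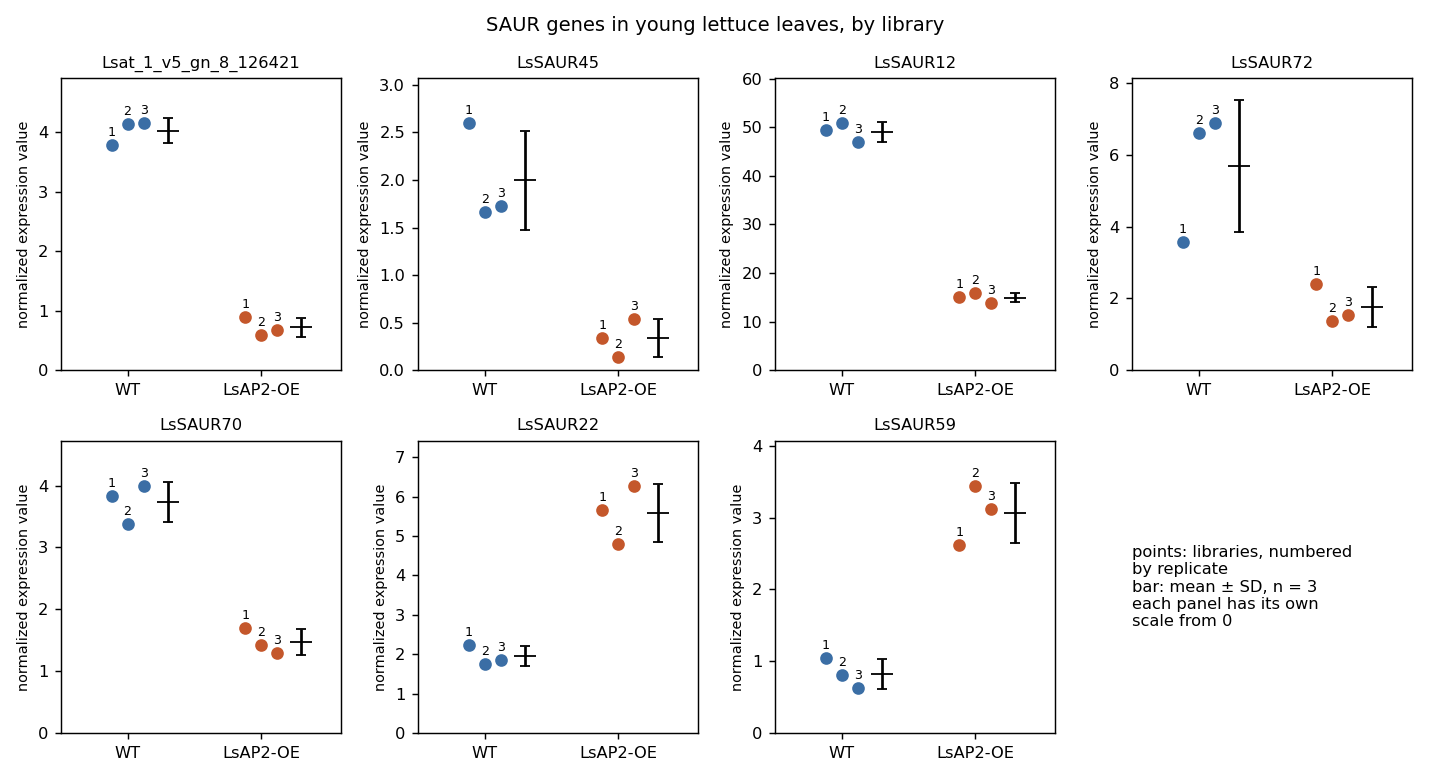
Normalized expression value (vertical axis, each panel from 0) of the 7 *SAUR* genes in the 3 WT and 3 *LsAP2*-OE libraries, numbered by replicate, with mean ± SD (n = 3). The groups are apart in every panel, by the smallest ratio of lowest WT to highest *LsAP2*-OE value for *LsSAUR72* (1.49), where WT replicate 1 was at 3.56 and *LsAP2*-OE replicate 1 at 2.40.

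*LsSAUR12* (Lsat_1_v5_gn_8_126641), described as the soybean auxin-induced protein 15A, was the member with the highest listed values and the closest replicates. Its values were 49.4, 50.9 and 46.9 in WT and 15.03, 15.8 and 13.9 in *LsAP2*-OE. The groups were far apart, the lowest WT library being 2.96 times the highest *LsAP2*-OE library. The mean fell from 49.04 ± 2.02 to 14.9 ± 0.973 (SD, n = 3). The log2 fold change was −1.71 ± 0.073 (standard error; limma, adjusted p = 1.98e-07). Of the 1021 genes called lower, 343 fell further on the same scale. The other 6 *SAUR* genes had listed values between 0.134 and 6.88, where the pseudocount weighs more.

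The 2 genes described as ARG7, the mung bean protein whose transcript responds to indole-3-acetic acid, had the largest falls on the scale with a pseudocount of 0.1. Lsat_1_v5_gn_8_126421 was listed at 3.78, 4.13 and 4.16 in WT and at 0.901, 0.586 and 0.672 in *LsAP2*-OE. The lowest WT value was 4.2 times the highest *LsAP2*-OE value, the widest gap among the *SAUR* genes. All its *LsAP2*-OE values were below 1, where the counting error is unknown. Its mean fell from 4.03 ± 0.209 to 0.720 ± 0.163 (SD, n = 3), a ratio of 5.59. The log2 fold change was −2.35 ± 0.19 (standard error; limma, adjusted p = 5.34e-06). Its identifier and that of *LsSAUR12* are the closest pair of numbers among the 7. The sources used here do not say how reads shared by similar copies were counted, so how values of similar members divide is uncertain.

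*LsSAUR45* (Lsat_1_v5_gn_9_20900), the other ARG7-described gene, was listed at 2.60, 1.67 and 1.72 in WT and at 0.340, 0.134 and 0.535 in *LsAP2*-OE. Its NR description is auxin-induced protein 15A, the protein that Swiss-Prot names for *LsSAUR12*. WT replicate 1 was the high library, and *LsAP2*-OE replicate 2 held the lowest value of any *SAUR* gene. The coefficient of variation in *LsAP2*-OE was 59.5%, against a median of 10% over all genes of the table. The mean fell from 2.0 ± 0.523 to 0.337 ± 0.20 (SD, n = 3), a ratio of 5.93. The log2 fold change was −2.35 ± 0.37 (standard error; limma, adjusted p = 2.89e-04). The size of both ARG7-described falls depends on the pseudocount. With 1 in place of 0.1, the log2 fold changes were −1.55 for Lsat_1_v5_gn_8_126421 and −1.16 for *LsSAUR45*, both smaller falls than the −1.65 of *LsSAUR12*.

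*LsSAUR70* (Lsat_1_v5_gn_8_71421), described as the soybean auxin-induced protein 6B, had the smallest fall. It was listed at 3.83, 3.38 and 4.0 in WT and at 1.69, 1.43 and 1.29 in *LsAP2*-OE, so that the lowest WT library was 2.0 times the highest *LsAP2*-OE library. The mean fell from 3.74 ± 0.319 to 1.47 ± 0.203 (SD, n = 3), a ratio of 2.54, with −1.29 on the log2 scale (limma, 95% interval −1.67 to −0.91, adjusted p = 7.81e-05).

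Swiss-Prot describes both *LsSAUR72* and *LsSAUR59* as the soybean protein X10A, and these genes moved in opposite directions. Their NR descriptions differ, an X15-like auxin-induced protein for *LsSAUR72* and an uncharacterized protein for *LsSAUR59*. *LsSAUR72* (Lsat_1_v5_gn_7_70721) was listed at 3.56, 6.60 and 6.88 in WT and at 2.40, 1.36 and 1.54 in *LsAP2*-OE. WT replicate 1 was well below the other two WT libraries, and the lowest WT value was 1.49 times the highest *LsAP2*-OE value, the narrowest gap among the *SAUR* genes. The mean fell from 5.68 ± 1.84 to 1.76 ± 0.555 (SD, n = 3), and the log2 fold change was −1.62 ± 0.30 (standard error; limma, adjusted p = 7.16e-04). With each library left out in turn the log2 fold change lay between −1.92 and −1.45. *LsSAUR59* (Lsat_1_v5_gn_3_2200) was listed at 1.04, 0.809 and 0.619 in WT and at 2.61, 3.45 and 3.12 in *LsAP2*-OE. All *LsAP2*-OE libraries were at least 2.52 times the highest WT library. The mean rose from 0.822 ± 0.210 to 3.06 ± 0.419 (SD, n = 3), or by 1.79 ± 0.22 on the log2 scale (standard error; limma, adjusted p = 6.38e-05). With a pseudocount of 1 the log2 fold change was 1.16.

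*LsSAUR22* (Lsat_1_v5_gn_3_45581), described as the soybean auxin-induced protein X15, was the other gene that rose. It was listed at 2.23, 1.75 and 1.86 in WT and at 5.66, 4.8 and 6.28 in *LsAP2*-OE. The lowest *LsAP2*-OE library was 2.15 times the highest WT library. The mean rose from 1.95 ± 0.253 to 5.58 ± 0.743 (SD, n = 3), or by 1.47 on the log2 scale (limma, 95% interval 1.10 to 1.84, adjusted p = 2.94e-05). Of the 1525 genes called higher, 694 rose further than *LsSAUR22* and 491 further than *LsSAUR59*.

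**Figure D2:**
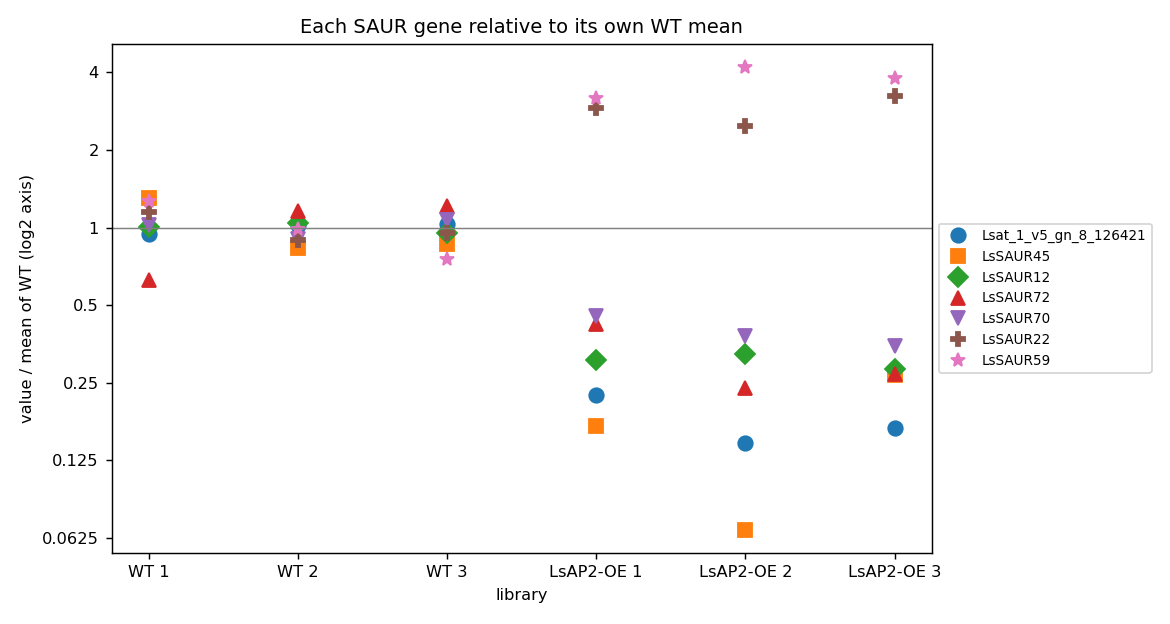
Value of each *SAUR* gene divided by its own mean in WT (vertical axis, log scale), for the 6 libraries. In *LsAP2*-OE the 2 genes that rose lie between 2.47 and 4.19 and the 5 that fell between 0.0674 and 0.453, with the widest scatter for *LsSAUR45*.

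That the *LsAP2*-OE libraries lie on the same side was largely fixed by the selection and by the split into genes that fell and rose. The groups did not overlap for 99.4% of the table. The averages below therefore describe only the size of the differences. Averaged over the 5 genes that fell, the difference from the WT mean on the log2 scale was −1.64, −2.12 and −1.83 in *LsAP2*-OE replicates 1, 2 and 3, and between −0.05 and 0.05 in the WT libraries. Averaged over the 2 genes that rose, it was 1.54, 1.62 and 1.74 in *LsAP2*-OE and between −0.19 and 0.26 in WT. WT replicate 1 was the highest WT library for 3 of the 7 genes and the lowest for 2. *LsAP2*-OE replicate 2 was the lowest *LsAP2*-OE library for 4 of the 7. With any 1 of the 6 libraries left out all 7 genes were at an adjusted p below 0.01 from limma, as was nearly the whole table (without WT replicate 3, 996 genes lower and 1496 higher of 2579). The largest value was 0.00414 for *LsSAUR72* without WT replicate 3.

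**Figure D3:**
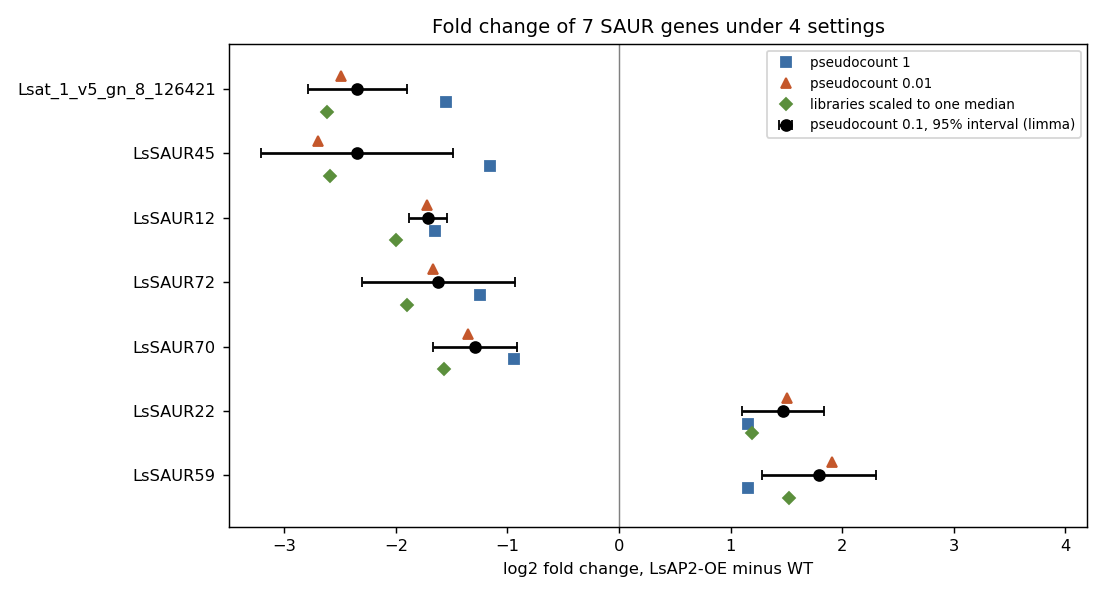
Log2 fold change of the 7 *SAUR* genes (horizontal axis, *LsAP2*-OE minus WT) with a pseudocount of 0.1 and its 95% interval from limma, with pseudocounts of 1 and 0.01, and with libraries scaled to a common median. The 5 falls and 2 rises keep their side of 0 under all 4 settings, and the pseudocount of 1 moves *LsSAUR45* the most, to −1.16.

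Scaling the libraries to a common median of the table shifted the median log2 fold change of all genes by −0.28, from 1.03 to 0.75. Under this scaling the 5 lower genes had log2 fold changes of −2.62 to −1.57, and *LsSAUR22* and *LsSAUR59* had 1.19 and 1.52. The table holds more genes that rose than fell, so a common median is not given by the design. The median log2 fold change was −1.71 for the 5 lower *SAUR* genes and −1.49 for all genes called lower. It was 1.63 for the 2 higher *SAUR* genes and 1.39 for all genes called higher.

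Whether members moved by different amounts was examined with the log2 ratio of each of the other 6 genes to *LsSAUR12* within a library, which uses *LsSAUR12* as the common reference. Relative to *LsSAUR12*, *LsSAUR22* and *LsSAUR59* were higher in *LsAP2*-OE by 3.18 and 3.51 on the log2 scale, and *LsSAUR70* by 0.42. Lsat_1_v5_gn_8_126421 was lower by a further 0.64, with ratios of −3.67 to −3.46 in WT and −4.54 to −3.92 in *LsAP2*-OE. In these 4 of 6 pairs the groups did not overlap. For *LsSAUR22* and *LsSAUR59* this was fixed by the selection, since they rose and *LsSAUR12* fell. The share of the whole table without overlap against *LsSAUR12* was not computed. For *LsSAUR45* the ratios were −4.85 to −4.20 in WT and −6.09 to −4.46 in *LsAP2*-OE, and for *LsSAUR72* they were −3.76 to −2.75 and −3.45 to −2.60, so these groups overlapped. By an exact permutation test, two-sided, no pair could pass, since 3 libraries against 3 give a p of at least 0.1 (adjusted p = 0.15 over the 6 pairs for the 4 without overlap, 0.36 for *LsSAUR45* and 0.9 for *LsSAUR72*). With a pseudocount of 1, the difference of Lsat_1_v5_gn_8_126421 from *LsSAUR12* changed sign, to 0.10, and that of *LsSAUR45*, −0.64 with 0.1, was 0.49.

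The profile of *LsSAUR12* over the 6 libraries was set against the 1942 described genes outside the family, as the Euclidean distance between log2 values centred on each gene's mean. The nearest were a histone H4 gene (Lsat_1_v5_gn_3_64581, distance 0.194), a 60S acidic ribosomal protein P0 gene (Lsat_1_v5_gn_2_121360, 0.199) and the ABC transporter *ABCG11* (Lsat_1_v5_gn_5_73901, 0.207), which in *Arabidopsis* exports cuticular lipids, against a median distance of 3.44. The histone gene fell from 228 ± 17.2 to 71.9 ± 4.81 and the transporter from 19.2 ± 0.341 to 5.93 ± 0.147 (SD, n = 3). Among the 40 genes of the auxin and wall lists, the closest were *LsARF5a* (0.474), expansin A15 (Lsat_1_v5_gn_4_109320, 0.546) and a *LAX2*-described auxin influx carrier (Lsat_1_v5_gn_9_63301, 0.557), against a median of 3.25. The last 3 fell by 1.44, 1.76 and 2.08 on the log2 scale, and every gene of the table differs between the groups by selection. Both medians are large in part by direction, since 59.1% of the table and 21 of the 40 list genes rose while *LsSAUR12* fell. Nearness here mostly reflects a fall of similar size.

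Genes that act before *SAUR* genes in auxin response also appear in the table. All 3 *YUCCA* genes, which make auxin, were lower: *LsYUC4b* fell from 5.59 ± 0.345 to 0.997 ± 0.472, *LsYUC4a* from 4.7 ± 0.439 to 1.79 ± 0.241, and *LsYUC6* from 1.65 ± 0.460 to 0.521 ± 0.118 (SD, n = 3). Of 7 *GH3* genes, which conjugate auxin to amino acids and are early auxin response genes like the *SAUR* family, 5 were lower and 2 higher. *LsGH3.1b* was listed at 22.5, 26.0 and 24.4 in WT and at 3.85, 4.06 and 4.11 in *LsAP2*-OE. A *GH3.5*-described gene (Lsat_1_v5_gn_9_94760) had a log2 fold change of −2.68 and *LsGH3.1c* one of −2.58, and the order of the *GH3* falls depends on the pseudocount. The 3 *AUX/IAA* genes, repressors of auxin response, were higher, with log2 fold changes of 0.95 (*LsIAA16*), 1.92 (*LsIAA3*) and 2.92 (*LsIAA14*). Of 4 auxin response factors, which activate or repress auxin-responsive genes, *LsARF5a*, *LsARF5b* and *ARF16* (Lsat_1_v5_gn_8_20161) were lower (−1.44, −1.06 and −1.09) and *ARF19* was higher (1.03). *ARF16* was not called without *LsAP2*-OE replicate 1 (adjusted p = 0.0104 from limma). No gene of the table was described as a TIR1 or AFB auxin receptor, which says nothing of receptors outside the table.

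Auxin carriers moved both ways. A *LAX2*-described influx carrier (Lsat_1_v5_gn_9_63301) fell from 6.72 ± 0.789 to 1.51 ± 0.130, while another *LAX2*-described gene (Lsat_1_v5_gn_5_155160) and the efflux carrier *PIN4* (Lsat_1_v5_gn_4_14360) rose from 24.1 ± 2.48 to 45.7 ± 3.34 and from 37.8 ± 1.17 to 77.0 ± 2.13 (SD, n = 3). Another efflux carrier, *PIN1c* (Lsat_1_v5_gn_5_155800), which the fixed list words missed by their capitals and which was found after values were seen, fell by 1.32 on the log2 scale. That gene is left out of the carrier list and its median. Regulators that act on *SAUR* genes in *Arabidopsis* include factors of the brassinosteroid, phytochrome and TCP families. The 2 genes of the table that the list words match were both lower, the BES1/BZR1 homolog *BEH4* (Lsat_1_v5_gn_7_102101), from 16.1 ± 0.676 to 6.21 ± 1.12, and *TCP20* (Lsat_1_v5_gn_2_94320), from 5.07 ± 0.159 to 2.06 ± 0.333 (SD, n = 3). The words missed the phytochrome-interacting factor *PIF7*, which was lower too. It is given under the other observations and is not in the list or its median.

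PP2C and plasma membrane proton pumps are kinds of protein that act after SAUR proteins in *Arabidopsis*. Genes described as PP2C moved both ways, while the 2 described as plasma membrane proton pumps were both higher. Of 5 PP2C genes, 3 were lower and 2 higher. The one described as *PP2C 24* (Lsat_1_v5_gn_9_24061) fell from 17.4 ± 2.09 to 3.80 ± 0.416, and the log2 fold changes of those described as *PP2C 6* and *PP2C 25* were −1.22 and −1.13. Those described as *PP2C 44* and *PP2C 12* had values of 0.97 and 1.12. SAUR proteins are known to bind 1 clade of PP2C in *Arabidopsis*, and the descriptions do not name a clade. The NR description of the *PP2C 24* gene is of a PP2C highly induced by abscisic acid. Whether any of the 5 is a target of SAUR proteins was not examined. A pair of proton pump genes described as plasma membrane ATPase 4, also missed by the capitals of the fixed words, were higher: one (Lsat_1_v5_gn_5_85480) was listed at 20.2, 22.5 and 22.4 in WT and at 78.4, 79.3 and 82.0 in *LsAP2*-OE, the other (Lsat_1_v5_gn_8_68180) at 66.4, 71.3 and 66.6 and at 144, 142 and 140. Their log2 fold changes were 1.88 and 1.06 (adjusted p = 7.87e-08 and 4.91e-07 from limma).

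Expansins and xyloglucan enzymes were the wall lists, to be read beside the 59.1% of the table that was higher. Of 7 expansins, 6 rose and 1, expansin A15 (Lsat_1_v5_gn_4_109320), fell from 10.6 ± 1.05 to 3.1 ± 0.662 (SD, n = 3). An expansin A4 gene (Lsat_1_v5_gn_8_15340) was listed at 31.6, 26.0 and 29.6 in WT and at 95, 103 and 95 in *LsAP2*-OE, and an expansin A8 gene (Lsat_1_v5_gn_9_59761) had the largest rise among the expansins, with a log2 fold change of 2.14. The rise of expansin A1 (Lsat_1_v5_gn_9_13940), 1.91 on the same scale, rests on values below 2. Of 6 xyloglucan endotransglucosylase genes, 5 rose and 1 fell. The one described as *XTH7* (Lsat_1_v5_gn_3_84840) rose from 23.6 ± 1.27 to 165 ± 6.62, and an *XTH32* gene (Lsat_1_v5_gn_6_44180) from 0.196 ± 0.112 to 6.19 ± 0.0796 (SD, n = 3). Another *XTH32* gene (Lsat_1_v5_gn_1_64420) was listed at 0 in WT replicates 1 and 2, at 0.0778 in WT replicate 3, and at 1.2, 1.03 and 1.00 in *LsAP2*-OE.

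Side by side, the median log2 fold change was −1.62 for the 7 *SAUR* genes, −2.10 for *GH3*, −1.48 for *YUCCA*, −1.32 for the regulators, −1.08 for *ARF*, −1.13 for PP2C, 0.92 for auxin carriers, 1.92 for *AUX/IAA*, 1.46 for expansins and 2.91 for xyloglucan enzymes (the *XTH32* gene listed at 0 included), against 1.03 for the whole table. The carrier median is that of 3 genes and leaves out *PIN1c*, which fell. With *PIN1c* counted, 2 carriers were higher and 2 lower, so the median gives no common direction for carriers. Over the 40 genes of all these lists other than *SAUR*, 21 were higher and 19 lower. With a fold of at least 2 required as well, 16 were higher and 19 lower. Each list holds only genes that differed by selection, and no list was tested against the table.

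**Figure D4:**
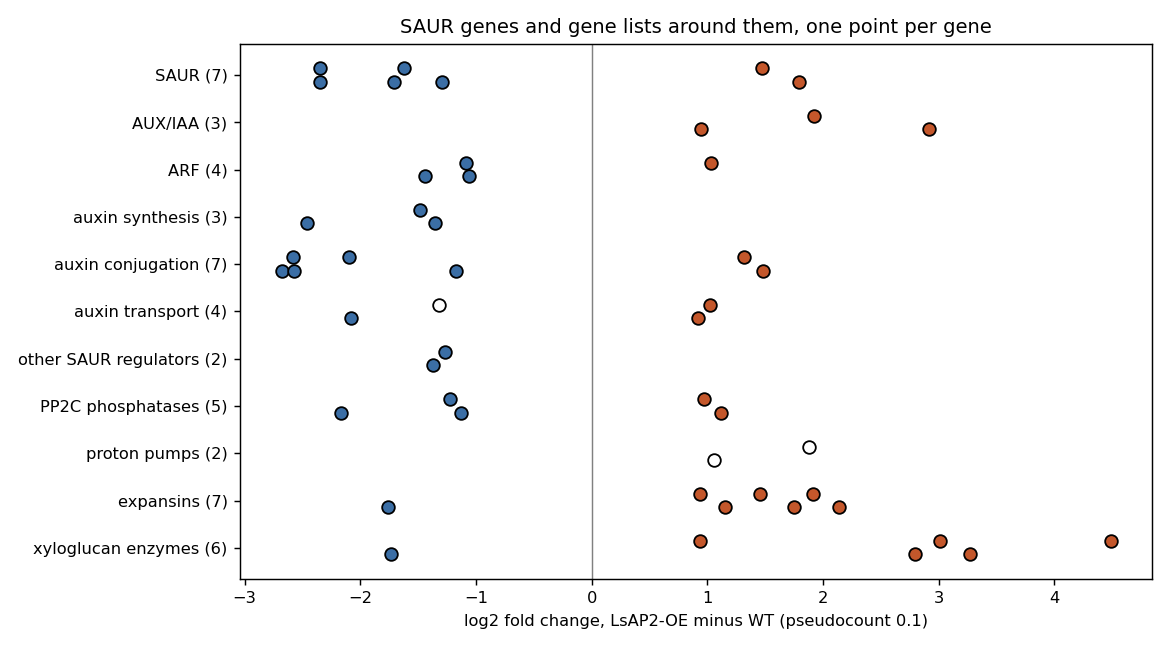
Log2 fold change (horizontal axis, *LsAP2*-OE minus WT, pseudocount 0.1) of the *SAUR* genes and of 10 lists of genes around them, 1 point per gene, with the number of genes in brackets. Blue points fell and orange points rose, and open points are the 3 genes that only a match without regard to capitals found. *SAUR* genes lie at −2.35 to −1.29 and at 1.47 and 1.79, with none near 0 because the table holds called genes alone.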

How the data were processed

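Reads were aligned by the authors to lettuce with HISAT2, and DESeq selected the genes (fold change of 2 or more, FDR under 0.01). Versions, quantifier and build were not given in the sources used here. Each deposited signal is a normalized expression value per gene and library, of unnamed normalization. Of the 200 lowest values of each library, 9% to 12.5% were within 0.05 of a whole multiple of the lowest, against 10% by chance, so reads and depth could not be recovered and no counting precision can be given. Columns of the authors' own fold changes, FDR and direction were not used.

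Groups follow the sample titles. All 2579 genes were compared between 3 WT and 3 *LsAP2*-OE libraries with limma 3.58.1 (trend of variance with level, all genes kept, no replicate block) on log2(value + 0.1), with Benjamini-Hochberg adjustment over all of its genes and a threshold of 0.01, in R 4.3.3. Fold changes on this scale understate those of low genes. The authors selected at a fold of at least 2 in their own analysis. Even without a pseudocount, ratios of the listed means were below 2 for some genes that rose. Examples are 1.94 for *LsIAA16* and 1.90 for a *LAX2*-described gene (Lsat_1_v5_gn_5_155160). Exact permutation tests used scipy 1.17.1, with pandas 2.3.3, numpy 2.4.6 and matplotlib 3.10.9 in Python 3.11.15. The procedure was also run on simulated data in which most genes were unchanged. This table holds only selected genes, so that run does not give error rates for it. The replicates are biological according to the study. P-values measure the spread between these libraries. Same-numbered libraries did not deviate together (correlations of −0.0389 to 0.0136), so the numbers were not treated as pairs.

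The members, the 11 auxin and wall lists, the 6 marker lists and the alternatives were chosen with earlier results of these data known. Lists match words of the Swiss-Prot descriptions, which 1949 genes carry. Named genes are every *SAUR* gene, *LsAP2*, all genes of auxin and wall lists of 5 or fewer, otherwise the 2 with the largest change and the 1 with the highest mean, and the 3 nearest profiles to *LsSAUR12* among described genes and among the lists. Any other gene was named with its values in view. No identifier matched the genes of RefSeq (0 of 2579), so no coordinates or sequences are given. The alternatives tried were 1 and 0.01 as pseudocount, only genes with a mean of 1 or more, no trend, replicate number as a block, a common median, an adjusted p below 0.05, a fold of at least 2 in addition, each library left out, and members by NR description.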

Additional observations from a re-analysis of the deposited data

How the results depend on the processing

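All 98 values of the 7 *SAUR* fold changes under the alternatives kept their direction and stayed past the threshold. Of these, 7 use the looser threshold of 0.05, which cannot lose a call. The table as a whole did much the same, with 996 to 1026 genes lower and 1441 to 1528 higher under the pseudocounts, no trend, the block, scaling and each library left out, beside 1021 and 1525. With replicate number as a block, the counts were also 5 lower and 2 higher, and 19 and 21 for the auxin and wall lists. The numbers do not pair the libraries, since the correlations of same-numbered deviations were −0.0136, −0.0389 and 0.0136. With members taken from the NR descriptions, 2 were lower and 3 higher. That match finds 5 genes, of which 3 are among the 7, and it brings in *LsIAA3*, which is no *SAUR* gene. Without 1 library, 18 to 19 genes of the auxin and wall lists were lower and 21 to 21 higher. Among genes with a mean of at least 1, 16 were lower and 17 higher, and with a fold of at least 2 as well, 19 were lower and 16 higher. The difference of Lsat_1_v5_gn_8_126421 from *LsSAUR12*, −0.64 with a pseudocount of 0.1, was 0.10 with one of 1, since the larger pseudocount shrinks low values. That of *LsSAUR45* went from −0.64 to 0.49. Matching list words without regard to capitals, an alternative chosen after seeing the data, gave 20 lower and 23 higher. Depth is unknown, so values below about 1, such as those of *LsSAUR45* and Lsat_1_v5_gn_8_126421 in *LsAP2*-OE, have no known counting error.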

Other observations

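A further candidate of the family carries no Swiss-Prot description. Lsat_1_v5_gn_5_139080 is named a SAUR family protein of *Theobroma cacao* in the NR description. It was listed at 2.34, 2.16 and 2.23 in WT and at 12.3, 10.7 and 9.48 in *LsAP2*-OE, so that the groups did not overlap. The means were 2.24 ± 0.0930 and 10.8 ± 1.39 (SD, n = 3). The log2 fold change was 2.21 ± 0.13 (standard error; limma, adjusted p = 7.81e-07), beside 1.47 for *LsSAUR22* and 1.79 for *LsSAUR59*. Counted with the 7 genes, in a step added after seeing the data, 5 were lower and 3 higher.

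Other genes with an auxin description or a link to auxin, chosen after their values were seen, moved both ways. An auxin-binding protein ABP19a gene (Lsat_1_v5_gn_5_136060), a germin-like protein by sequence family, rose from 54.5 ± 4.52 to 428 ± 38.8 (SD, n = 3), and the indole-3-acetate methyltransferase *IAMT1* (Lsat_1_v5_gn_0_36880), which makes the methyl ester of auxin, rose from 0.484 ± 0.107 to 1.33 ± 0.283. The gene described as auxin-repressed 12.5 kDa protein (Lsat_1_v5_gn_7_20981) was listed at 185, 132 and 146 in WT and at 67.4, 73.7 and 57.4 in *LsAP2*-OE. The phytochrome-interacting factor *PIF7* (Lsat_1_v5_gn_4_110001), which promotes auxin synthesis in shaded *Arabidopsis* seedlings, fell from 1.20 ± 0.174 to 0.293 ± 0.143 (SD, n = 3). The kinase *PINOID 2* (Lsat_1_v5_gn_5_99040), of the family that directs auxin efflux carriers, was listed at 28.6, 28.9 and 28.2 in WT and at 10.7, 10.2 and 10.2 in *LsAP2*-OE.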
